A study of Mus musculus with 93 samples.

Results

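Krt12, Krt5, Krt14, Krt15, Krt4, Krt13, Krt19 and Aldh3a1 are genes of the corneal and conjunctival epithelium, the stratified epithelium that covers the front of the eye. They were taken by symbol from the deposited gene tables and are 8 of 30235 genes, each with 1 row. They serve here as a measure of how much ocular surface each eye tissue library held. The study sequenced messenger RNA of untreated female mice from 2 tissues, neural retina and posterior eyecup, the eyecup being defined in the series text as the eye with its lens and its retina removed. The sample label says posterior, which names no cornea or conjunctiva, while the levels below show surface transcripts in every eyecup library. Mice were wild type (Efemp1+/+) or carried Efemp1ki/ki, a homozygous knock-in of the gene for the matrix protein fibulin-3 used to model Doyne honeycomb retinal dystrophy. Wild-type eyecups numbered 6 at 3 months of age, 8 at 9 months and 8 at 17 months. Efemp1ki/ki eyecups numbered 8 at 3 months, 8 at 9 months and 7 at 17 months, and each of the 6 retina groups of the same genotypes and ages held 8 libraries. Whether libraries of a group are separate mice is not in the labels, and the p-values therefore speak only of library-to-library spread, which may be technical.

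Keratins build the intermediate filaments of epithelial cells from pairs of an acidic type I chain and a basic type II chain, and the pair in use changes with the cell type and layer. Krt5 (type II) and Krt14 (type I) are the pair of basal cells in stratified epithelia, and Krt15 (type I) is typical of basal cells at the limbus, the stem cell zone at the corneal rim. Krt12 (type I) is made almost only by corneal epithelium, where its partner is Krt3 in many mammals and Krt5 in the mouse. Krt4 (type II) and Krt13 (type I) are the pair of the suprabasal layers of moist, unkeratinised surfaces, conjunctiva among them, and Krt19 (type I) is found in conjunctival and limbal cells. Aldh3a1 is an aldehyde dehydrogenase that accumulates in the cornea to the level of a structural protein and is counted among the corneal crystallins.

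In the coordinates of the deposited table (build GRCm38) the type I genes lie on chromosome 11, Krt12 at chr11:99415666-99422259, Krt13 at chr11:100117327-100121566, Krt15 at chr11:100131758-100135928, Krt19 at chr11:100140810-100148665 and Krt14 at chr11:100203162-100207548. The type II genes lie on chromosome 15, Krt5 at chr15:101707070-101712891 and Krt4 at chr15:101918536-101924735. Aldh3a1, at chr11:61207537-61218421, lies apart from the keratin cluster of its chromosome. The 250 bases before the start of transcription are shown for Krt12, the corneal keratin, Krt5, which followed it from library to library, and Krt13, which with Krt12 differed between ages. The sequences are from RefSeq (GRCm38.p6, minus strand, written 5′ to 3′ in the sense of the gene), and capitals mark CACCC on either strand (GGGTG when read on the strand shown) and ATAAANG, a form of the TATA element.
Krt12, chr11:99422260-99422509: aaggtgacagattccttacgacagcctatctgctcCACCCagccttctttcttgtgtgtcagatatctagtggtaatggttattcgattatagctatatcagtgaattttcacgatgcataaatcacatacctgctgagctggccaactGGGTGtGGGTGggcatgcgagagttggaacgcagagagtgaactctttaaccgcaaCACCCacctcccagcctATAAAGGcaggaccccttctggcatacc
Krt13, chr11:100121567-100121816: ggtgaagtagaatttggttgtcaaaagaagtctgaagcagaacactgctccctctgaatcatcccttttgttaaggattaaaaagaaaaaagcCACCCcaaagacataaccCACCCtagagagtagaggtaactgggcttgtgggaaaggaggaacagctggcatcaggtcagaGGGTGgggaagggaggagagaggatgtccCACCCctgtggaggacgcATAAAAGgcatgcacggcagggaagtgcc
Krt5, chr15:101712906-101713155: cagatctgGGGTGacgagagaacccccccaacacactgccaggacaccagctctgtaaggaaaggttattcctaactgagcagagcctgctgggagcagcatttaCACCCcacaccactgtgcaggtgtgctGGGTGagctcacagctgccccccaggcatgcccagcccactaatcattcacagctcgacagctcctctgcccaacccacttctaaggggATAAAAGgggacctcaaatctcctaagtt
ATAAANG lies 28 bases before the start in Krt12, and 29 bases before it in Krt13 and in Krt5. CACCC occurs 4 times in the Krt12 and Krt13 windows and 3 times in that of Krt5. The 7-base pattern TGANTCA is a looser form of the AP-1 binding motif, with any base at its middle position. It matched in Krt13 as TGAATCA, 196 bases before the start, and not in the windows of Krt12 and Krt5. Over 32851 mouse promoter windows of the same length, 52.0% held CACCC, 11.6% ATAAANG and 6.75% TGANTCA, searched on both strands. TATAAA, which overlaps ATAAANG, occurs in the Krt12 window only of the 3 and in 12.4% of all windows. The motifs were chosen after reading the sequences, and a match describes the letters and not a bound site.

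Eyecup libraries held 14236109 to 35297565 estimated counts (median 19982869) and retina libraries 9218087 to 37475423. Levels are given as counts relative to the library total after scaling by the trimmed mean of M values (TMM), in CPM, or, where genes are compared with each other, as the deposited TPM value, which is per length of transcript. The closest pair of libraries in any group still differed 2.29 times more than sampling noise (chi-square per degree of freedom), so no library was counted as a copy. Eyecup libraries WT 9 months replicate 4, Efemp1ki/ki 3 months replicate 4 and WT 17 months replicate 2 stood apart from their groups over all genes, as did retina libraries WT 9 months replicate 7, Efemp1ki/ki 3 months replicate 5 and WT 17 months replicate 2. Without these 6 libraries the number of members called was the same or within 1.5 times in every comparison. Markers of neighbouring tissue were present in the eyecup libraries: the summed level of 12 skeletal muscle genes ran from 5064 to 16561 CPM in wild-type eyecups at 3 months and from 3615 to 44165 CPM at 17 months, and that of 10 rod photoreceptor genes from 882 to 8454 CPM and from 624.7 to 22757 CPM. The summed level of 13 genes of eyelid skin and hair stayed between 6.47 and 19.3 CPM in these 2 groups.

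The 8 members were among the most abundant transcripts of the tissue labelled posterior eyecup. Together they took 2.18% (WT 9 months replicate 5, Wilson 95% interval 2.17 to 2.19, which covers counting error only) to 5.53% (WT 9 months replicate 1, 5.52 to 5.54) of all estimated counts. Krt12 had a median TPM of 14410 over 45 eyecups and ranked 9 of 30235 genes by its mean, followed by Aldh3a1 with 9731 (rank 11), Krt5 with 7608 (rank 13) and Krt15 with 3146 (rank 25). Krt13 had a median TPM of 1220 (rank 87) and Krt4 of 515 (rank 216). Krt19 and Krt14 were lowest, with medians of 329 and 318.

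The order from Krt12 through Aldh3a1, Krt5, Krt15 and Krt13 to Krt4 was the same in 45 of 45 eyecups on the TPM scale, and Krt4 exceeded Krt19 in 44 of 45. Krt19 and Krt14 could not be ordered, Krt19 being the higher in 26 of 45 libraries with a median ratio of 1.03. The steps were of unequal size: the median TPM ratio was 1.40 for Krt12 to Aldh3a1, 1.32 for Aldh3a1 to Krt5, 2.32 for Krt5 to Krt15 and 2.62 for Krt15 to Krt13. The 5 type I members summed to 2.12 to 2.74 times the TPM of the 2 type II members, with a median of 2.38. The 7 keratin members held 81.6 to 85.7% of the summed TPM of 54 keratin genes. The other keratins with the highest mean TPM were Krt6a (2346) and Krt6b (2199), type II keratins of activated and corneal epithelium, then Krt80 (261), Krt7 (86.8) and Krt17 (71.4). Krt6a and Krt6b are near-identical copies, so reads could be split between them and each value is uncertain. Fractional counts, a sign that reads were shared with other rows (counted where a value lay more than 0.01 from a whole number), occurred for Krt14 in 44 of 45 eyecups, for Aldh3a1 in 41 and for Krt4 in 38. They occurred for Krt12 and Krt13 in 0 eyecups.

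**Figure D1:**
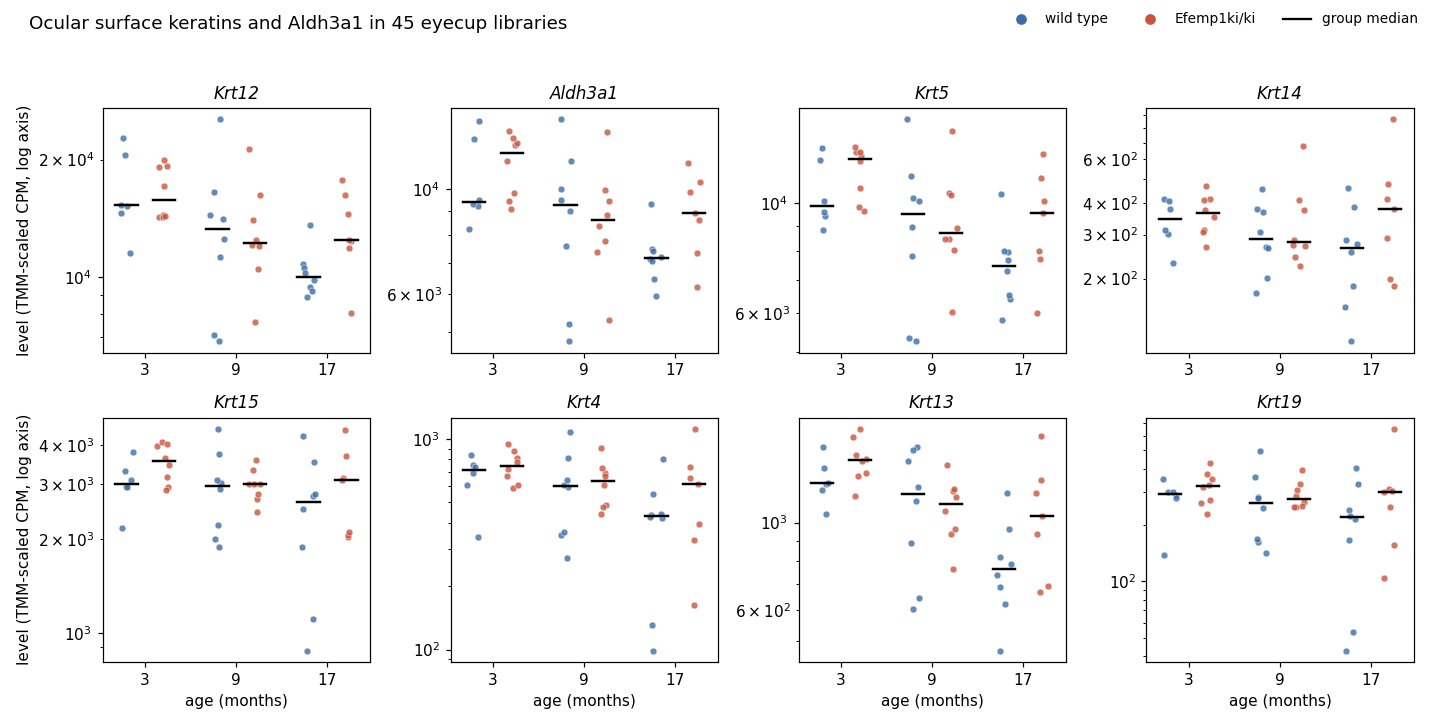
Level of each member in 45 eyecup libraries (y axis: TMM-scaled CPM, log axis) by age in months (x axis) for wild type (blue) and Efemp1ki/ki (red); points are libraries and black bars group medians. For Krt12, 7 of 8 wild-type libraries at 17 months lie below the lowest at 3 months, and for Krt4 and Krt19 a few libraries of several groups lie far under the rest.

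Within groups the members differed in how much they varied. The SD of log2 CPM within groups was 0.34 for Krt5, 0.34 for Aldh3a1, 0.38 for Krt13 and 0.40 for Krt12. It was 0.45 for Krt15, 0.54 for Krt14, 0.68 for Krt4 and 0.69 for Krt19. Krt5 and Aldh3a1 were the steadiest, and Krt4 and Krt19 spread most, above all in wild-type eyecups at 17 months, with SDs of 1.04 and 1.18. Over all eyecups the highest level was 2.80 times the lowest for Krt5, 3.72 times for Krt12, 11.3 times for Krt4 and 15.3 times for Krt19.

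Krt12, the corneal keratin, ran from 11490 to 22718 CPM with a median of 15265 in wild-type eyecups at 3 months, from 6818 to 25389 (median 13271) at 9 months and from 8877 to 13575 (median 10001) at 17 months. In Efemp1ki/ki eyecups it ran from 14209 to 19925 (median 15735) at 3 months, from 7643 to 21275 (median 12233) at 9 months and from 8073 to 17697 (median 12453) at 17 months. The wild-type group at 9 months held both the lowest and the highest eyecup. Of the 8 wild-type libraries at 17 months 7 lay below the lowest at 3 months, so those groups overlapped by 1 library. Fitted group means, tested with edgeR's quasi-likelihood test and adjusted by Benjamini-Hochberg over 18003 genes, gave a log2 difference of -0.69 ± 0.21 (SE) between 17 and 3 months, adjusted p = 0.0439.

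Aldh3a1, the corneal aldehyde dehydrogenase, followed the same pattern at a lower level. Wild-type eyecups held 8241 to 13918 CPM (median 9376) at 3 months, 4778 to 14019 (median 9233) at 9 months and 5958 to 9317 (median 7169) at 17 months. Efemp1ki/ki eyecups held 9087 to 13214 (median 11910), 5294 to 13199 (median 8595) and 6213 to 11350 (median 8896) at the same ages. As for Krt12, 7 of 8 wild-type libraries at 17 months lay below the lowest at 3 months, but the log2 difference of -0.53 ± 0.18 had an adjusted p of 0.0718 and did not pass the threshold of 0.05.

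Krt5, the basal type II keratin, ran from 8798 to 12893 CPM (median 9843) in wild-type eyecups at 3 months, from 5260 to 14728 (median 9509) at 9 months and from 5800 to 10410 (median 7471) at 17 months. In Efemp1ki/ki eyecups it ran from 9629 to 12954 (median 12272), from 6033 to 13979 (median 8675) and from 6006 to 12537 (median 9522). The groups overlapped at every age. For Krt5, as for Krt12, 7 of 8 wild-type libraries at 17 months lay below the lowest at 3 months. Its usual partner Krt14 was far lower: wild-type eyecups held 232 to 415 CPM (median 347), 175 to 457 (median 288) and 112 to 460 (median 265) at 3, 9 and 17 months. Efemp1ki/ki eyecups held 269 to 468 CPM of Krt14 (median 364), 224 to 677 (median 280) and 187 to 868 (median 381). Counts of Krt5 exceeded those of Krt14 14.4 to 59.8 times, with a median of 29.7, in the same eyecup.

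Krt15, the limbal and basal type I keratin, ran from 2175 to 3808 CPM (median 3017) in wild-type eyecups at 3 months, from 1892 to 4531 (median 2964) at 9 months and from 876 to 4291 (median 2627) at 17 months. Efemp1ki/ki eyecups held 2867 to 4113 (median 3556), 2441 to 3600 (median 3005) and 2036 to 4476 (median 3103). The wild-type group at 17 months was the widest, with 2 libraries, replicates 2 and 8, at 1111 and 876 CPM and the others at 1880 or above.

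Krt13, the type I keratin of moist surfaces, was the member with the lowest p between ages. Wild-type eyecups held 1053 to 1555 CPM (median 1258) at 3 months, 603 to 1555 (median 1183) at 9 months and 472 to 1191 (median 761) at 17 months. Of the 8 libraries at 17 months 7 lay below the lowest at 3 months. Efemp1ki/ki eyecups held 1170 to 1731 CPM (median 1441), 764 to 1396 (median 1118) and 666 to 1654 (median 1040). The mean fell from 1284 ± 168 CPM (SD, n = 6) to 784 ± 219 (SD, n = 8) in wild type, a log2 difference of -0.71 ± 0.20 (edgeR adjusted p = 0.0259).

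Krt4, the type II partner of Krt13, ran from 343 to 842 CPM (median 711) in wild-type eyecups at 3 months, from 272 to 1081 (median 596) at 9 months and from 98.7 to 806 (median 431) at 17 months. In Efemp1ki/ki eyecups it ran from 586 to 948 (median 748), from 442 to 905 (median 634) and from 164 to 1120 (median 613). Krt19 showed the same outline, with 139 to 351 CPM (median 294), 141 to 497 (median 262) and 42.6 to 403 (median 219) in wild type and 230 to 428 (median 323), 249 to 394 (median 275) and 104 to 654 (median 300) in Efemp1ki/ki. For both genes replicates 2 and 8 lay lowest in wild-type eyecups at 17 months, and the groups overlapped at every age.

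The comparison of ages within wild type asked whether the surface content of the eyecup changed over adult life. Between 3 and 17 months 2 of 8 members, Krt12 and Krt13, fell, where 3.16% of all tested genes were called lower and 5.88% in either direction. All 8 log2 differences were negative, with a median of -0.51 beside 0.03 over all genes. The members of a library are correlated, so the 8 signs are not independent. Besides those given above they were -0.48 ± 0.18 for Krt5 (adjusted p = 0.0948), -0.68 ± 0.33 for Krt4 (0.201), -0.40 ± 0.34 for Krt19 (0.453), -0.37 ± 0.28 for Krt14 (0.409) and -0.30 ± 0.23 for Krt15 (0.411). In bulk tissue, fewer surface cells in the piece and less of these transcripts per cell cannot be told apart. The calls depended on single libraries, that of Krt12 more than that of Krt13. Leaving out each of the 14 libraries in turn left 0 to 4 members called, Krt12 in 2 of 14 fits and Krt13 in 11 of 14. Without WT 17 months replicate 6, Aldh3a1 and Krt5 were called as well, beside 2199 of 18011 genes. With edgeR no member was called without WT 17 months replicate 8, WT 3 months replicate 3 or WT 3 months replicate 9, or without the 6 eyecups lowest in Krt4 relative to Krt12 described further on. Those fits called 488, 408, 298 and 388 genes in that order.

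Other genes of the ocular surface gave values beside those of the members. Of 19 genes of epithelial adhesion, 6 fell between 3 and 17 months in wild type and 0 rose, among them Dsg1a (-0.72 ± 0.20) and Dsg3 (-0.74 ± 0.21), cadherins of desmosomes, and Ppl (-0.57 ± 0.17), a plakin of the cell envelope. The list's median log2 difference was -0.52. Of 13 transcription factors of the surface epithelium 3 fell and 0 rose, among them Grhl3 (-0.62 ± 0.19) and Klf4 (-0.57 ± 0.18), with a list median of -0.40. Of 11 tested genes of corneal metabolism 1 fell, Tkt (-0.60 ± 0.18), which encodes the transketolase abundant in cornea, while Gsta4 (-0.53 ± 0.17) and Lypd3 (-0.58 ± 0.19) did not pass. Of 8 tested mucin and goblet cell genes 0 were called with edgeR, 1 had an unadjusted p under 0.05, and the list median was 0.04.

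Among 21 other keratins tested in the eyecup 4 fell in the same comparison: Krt90 (-1.63 ± 0.34), Krt78 (-0.68 ± 0.19), Krt16 (-1.72 ± 0.54) and Krt6a (-0.68 ± 0.21). Krt6b (-0.56 ± 0.19) and Krt80 (-0.53 ± 0.17) did not pass, with adjusted p-values of 0.0648 and 0.0523. Genes of other parts of the anterior eye and of other tissues also moved: 4 of 12 stromal genes fell, led by the keratocyte proteoglycan Kera (-1.64 ± 0.29), Col1a1 (-0.96 ± 0.21) and Col1a2 (-0.76 ± 0.21), and 2 of 5 corneal endothelium genes fell, Slc4a11 (-1.34 ± 0.29) and Col8a2 (-0.81 ± 0.22). Of 8 tested lens genes 6 fell, although the lens had been removed and levels were low. The summed level of all 10 listed was 6.59 to 372 CPM (median 10.4) at 3 months and 4.88 to 9.84 CPM (median 7.04) at 17 months. Of 6 immune cell genes 3 rose, Lyz2 (1.80 ± 0.20), Cd68 (0.75 ± 0.16) and Ptprc (0.84 ± 0.19), and 0 of 12 muscle genes passed, with a list median of 1.12. The part of these tissues in the members' differences was tested only for muscle and pigment epithelium: with the means of both lists as covariates Krt12 had a log2 difference of -0.61 (adjusted p = 0.109) and 1 member, Krt13, was called. That fit called 646 of 18003 genes.

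In Efemp1ki/ki eyecups 0 of 8 members were called between 3 and 17 months with edgeR, beside 3.57% of all genes, and 1, Krt13, had an unadjusted p under 0.05. The log2 differences were -0.44 ± 0.19 for Krt13, -0.39 ± 0.32 for Krt4, -0.34 ± 0.18 for Aldh3a1, -0.32 ± 0.18 for Krt5, -0.32 ± 0.21 for Krt12, -0.26 ± 0.22 for Krt15, -0.11 ± 0.33 for Krt19 and 0.15 ± 0.27 for Krt14. Of the 19 adhesion genes and the 13 transcription factors 0 were called in Efemp1ki/ki, with list medians of -0.28 and -0.24; 5 and 0 of them had an unadjusted p under 0.05. The difference between the genotypes in this change was tested as an interaction, and 0 of 8 members and 0% of all genes were called, with every member's unadjusted p at 0.194 or above. A member called in wild type and not in Efemp1ki/ki is therefore not shown to change differently. Of the steps between neighbouring ages, which share groups with these comparisons, 0 members were called with edgeR in wild type from 3 to 9 months (0.189% of all genes called) and from 9 to 17 months (0.05%), and in Efemp1ki/ki from 9 to 17 months (0.622%). From 3 to 9 months in Efemp1ki/ki 0 were called beside 14.6% of all genes, with Krt13 at -0.41 ± 0.18 and Aldh3a1 at -0.37 ± 0.17 having unadjusted p-values of 0.0307 and 0.0370. Limma voom with quality weights called 4 members in that step, beside 5894 of all 18003 genes.

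The genotypes were compared at each age to see whether the knock-in altered the surface content of the tissue. With edgeR 0 of 8 members were called at 3 months (3.07% of all genes), at 9 months (0.00555%), at 17 months (0.0611%) and as the mean of the 3 ages (4.48%), and DESeq2, limma voom and limma on TPM also called 0. At 3 months the log2 differences of Efemp1ki/ki minus wild type lay between -0.01 (Krt12) and 0.21 (Krt19 and Krt15), and at 9 months between -0.05 (Krt13) and 0.19 (Krt14). At 17 months all 8 were positive, from 0.26 ± 0.22 for Krt15 to 0.61 ± 0.27 for Krt14, with 0.37 ± 0.21 for Krt12 and 0.44 ± 0.19 for Krt13, beside a median of 0.03 over all genes. Over 13 alternatives the difference ran from 0.302 to 0.609 for Krt14 and from 0.0624 to 0.292 for Krt15. The wild-type libraries at 17 months are also those of the wild-type age comparison, and the members of a library are not independent. Krt13 and Krt14 had unadjusted p-values of 0.0236 and 0.0300 and adjusted ones of 0.415 and 0.434. Of 7 Efemp1ki/ki libraries at 17 months 6 lay above the wild-type median of Krt12, but 1 lay below the lowest wild-type library.

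**Figure D2:**
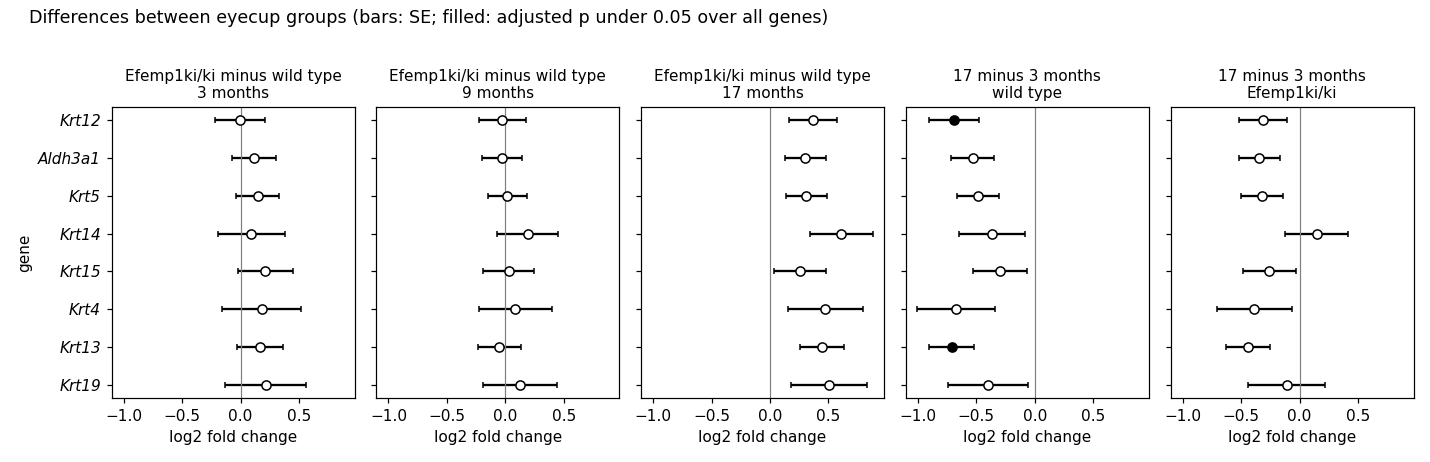
Log2 fold change of each member (x axis) between eyecup groups for the 3 genotype comparisons and for 17 minus 3 months in each genotype; bars are SE from edgeR and filled points have an adjusted p under 0.05 over 18003 genes. Krt12 and Krt13 in the wild-type age comparison are the 2 filled points, and all 8 points lie right of 0 for genotype at 17 months. Both comparisons use the wild-type libraries at 17 months, and the members of a library are not independent.

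The members rose and fell together from library to library within groups, in 2 sets. After removal of group means, Krt12, Aldh3a1 and Krt5 had Pearson's r of 0.94 to 0.96 with each other over 45 eyecups. For Krt12 with Aldh3a1 r was 0.956 and Spearman's rho 0.921, both with a permutation p of 1e-05, the smallest that 100000 permutations can give (adjusted over 28 pairs 2.33e-05). Without the 2 libraries farthest from the median in the first gene named, the rule for every pair below, r was 0.946. Krt4, Krt15 and Krt19 formed the other set, with r of 0.906 to 0.947. For Krt4 with Krt19 r was 0.947 and rho 0.896 (permutation p = 1e-05, adjusted 2.33e-05), and r was 0.927 without the 2 farthest libraries. Between the sets r was lower, from 0.0627 to 0.523 over 9 pairs, of which 3 passed by permutation: Krt5 with Krt15 (0.523, adjusted p = 0.000373), Krt5 with Krt19 (0.382, 0.0149) and Aldh3a1 with Krt15 (0.382, 0.00603). For Krt12 with Krt4, the lowest, it was 0.0627 (permutation p = 0.690, adjusted 0.690) and rho 0.173 (p = 0.264). Without the 2 libraries farthest in Krt12 r was 0.139, with no library left out for its Krt4. Krt13 correlated with both sets, with r of 0.683 to Krt12, 0.814 to Krt5 and 0.773 to Krt15, and Krt14 lay nearer the second, with r of 0.813 to Krt19 and 0.521 to Krt12. By permutation 22 of 28 pairs passed after adjustment, and 20 of 28 on the log2(TPM + 1) scale. Both genes of a pair come from the same library, with its depth and its tissue makeup. No batch or date of sequencing is given in the labels used here.

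**Figure D3:**
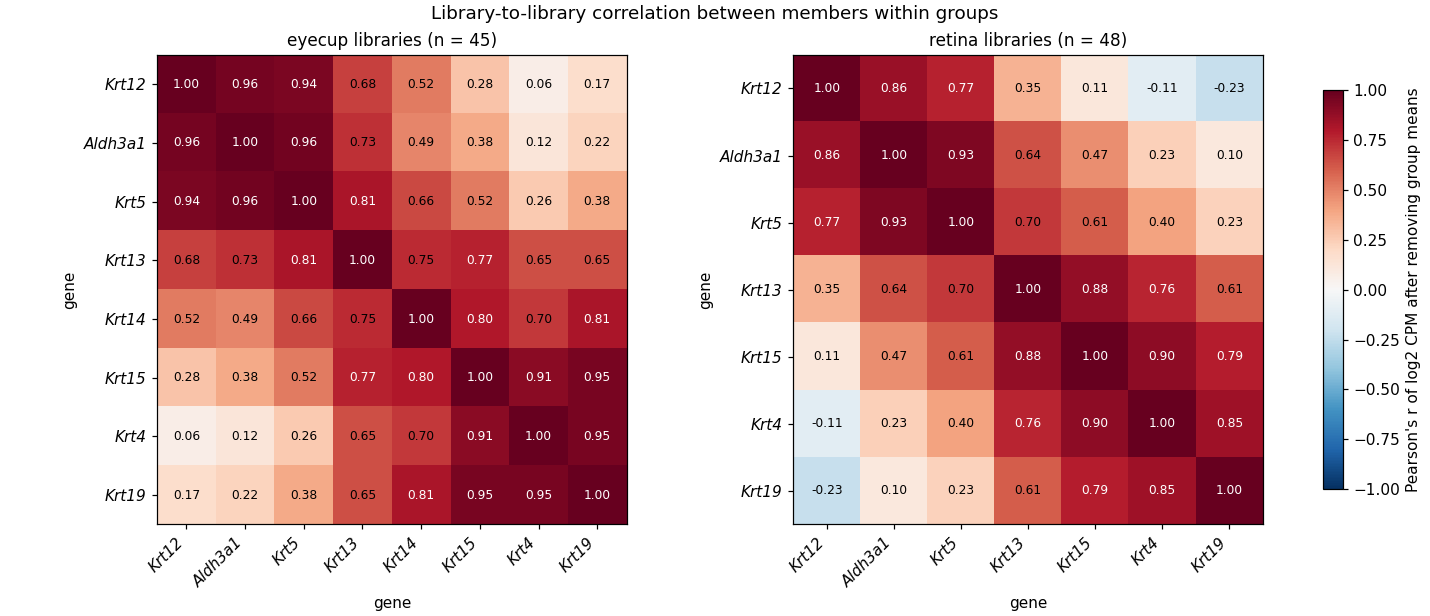
Pearson's r between members over 45 eyecups (left) and 48 retinas (right) after removal of group means from log2 CPM; red is positive and blue negative, and Krt14 is left out of the retina panel because it was not tested there. Krt12, Aldh3a1 and Krt5 form a block at the upper left of both panels, Krt15, Krt4 and Krt19 another at the lower right, and Krt12 is at 0.06 with Krt4 in eyecups and at -0.11 in retinas.

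In 6 eyecups Krt4 was low beside Krt12. The log2 ratio of Krt4 to Krt12 had a median of -4.38 and lay more than 3 scaled median absolute deviations below it, under -5.35, in WT 3 months replicate 3, WT 9 months replicate 1, WT 17 months replicates 2 and 8, Efemp1ki/ki 9 months replicate 7 and Efemp1ki/ki 17 months replicate 8. These came from 5 of 6 groups. Replicate 1 of WT 9 months, with the highest Krt12 of all eyecups at 25389 CPM, held 272 CPM of Krt4. Replicate 3 of WT 3 months held 22718 CPM of Krt12, the highest of its group, and 343 CPM of Krt4, the lowest of its group. In WT 17 months replicate 8 Krt12 was at 9210 CPM, inside its group's range, and Krt4 at 98.7 CPM, the lowest of all eyecups. Without these 6 libraries r was 0.653 for Krt12 with Krt4, 0.720 for Krt12 with Krt19 and 0.666 for Krt12 with Krt15. Since the libraries were chosen after seeing the data and by the ratio of these genes, leaving them out favours a higher r, and the values describe the other 39 libraries only.

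The library means of other tissues' genes were set beside the members in the same way, 96 relations in all, of which 29 passed after adjustment by permutation. The mucin and goblet cell list passed for Krt19 (r = 0.828, permutation adjusted p = 8.73e-05), Krt4 (0.794), Krt15 (0.768) and Krt14 (0.713). It did not pass for Krt13 (r = 0.406, permutation adjusted p = 0.0729), Krt5 (0.177), Aldh3a1 (0.0593) or Krt12 (0.0240). Rod photoreceptor genes had negative r with all 8 members, from -0.339 for Krt4 to -0.735 for Krt5, and passed for each except Krt4. Immune cell genes had positive r with all 8, from 0.460 for Krt4 to 0.728 for Krt13, and passed for each. The eyelid skin and hair list, of low level in these libraries, passed for 6 of 8 members, with r of 0.653 for Krt14, 0.643 for Krt15, 0.620 for Krt19, 0.574 for Krt4, 0.4999 for Krt13 and 0.338 for Krt5. Skin also makes Krt5, Krt14 and Krt15, and its part in the members' levels was not tested. Melanocyte genes passed for Aldh3a1 (0.477), Krt5 (0.455) and Krt12 (0.446), and the gland list for Krt14 (0.554). For muscle, lens, stroma, corneal endothelium, vascular endothelium and pigment epithelium 0 relations passed. Rod, immune and surface transcripts are shares of the same library, and their part in one another was not tested.

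Among 14123 genes whose mean log2 CPM was 0 or more, those most like each member over the 45 eyecups were found by the same r, given as a description. For Krt12 they were Padi4, a protein-arginine deiminase (0.958), Aldh3a1 itself, and the receptor gene Gprc5a (0.955). For Aldh3a1 they were Fam83a (0.980), the water channel Aqp5 (0.978) and Padi4 (0.971). For Krt5 they were Actn4, an actinin (0.986), the syndecan Sdc1 (0.984) and the desmosomal plakophilin Pkp3 (0.984). The nearest to Krt4 were Krt19, Krt7 (0.930) and Arhgdib (0.910), and to Krt19 Krt7 (0.975), the membrane mucin Muc1 (0.968) and the carbonyl reductase Cbr2 (0.958). Krt15 shared 2 of these, Cbr2 (0.961) and Muc1 (0.95003), behind Oit1 (0.962). Krt13 was nearest to Gsto1 (0.932), S100a10 (0.928) and Pycard (0.924), and Krt14 to Sept9 (0.901), Fgfr3 (0.893) and Muc13 (0.893).

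Neural retina has no keratinised or stratified surface and gave the background level. All 8 members were higher in eyecup than in retina in a joint fit of 93 libraries, where 47.7% of genes were called higher and 94.7% in either direction. The log2 difference was 10.88 ± 0.36 for Krt5, 10.87 ± 0.40 for Krt12, 10.76 ± 0.30 for Aldh3a1, 10.48 ± 0.21 for Krt14, 10.19 ± 0.29 for Krt15, 10.06 ± 0.28 for Krt4, 9.11 ± 0.21 for Krt19 and 9.01 ± 0.21 for Krt13. Together the members took 0.000434% (Efemp1ki/ki 3 months replicate 5) to 0.0333% (WT 3 months replicate 7) of retina counts. Krt12, with 13 to 2017 counts per retina, Aldh3a1 with 12 to 910 and Krt5 with 2 to 1041 were found in 48 of 48 retinas. Krt4 had 0 counts in 4 retinas, Krt19 in 1 and Krt14 in 6, where a count of 0 allows up to 0.132 to 0.325 CPM. Krt14 fell under the filter on low counts in retina and was not tested there.

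The ratios among the members were looser in retinas than in eyecups. Counts of Krt12 were 2.88 to 11.4 times those of Krt15 in eyecups, never below them in 45 libraries. In retinas the ratio ran from 0.0365 to 34.6, and Krt12 lay below Krt15 in 15 of 48. Efemp1ki/ki 9 months replicate 2 held 1.30 CPM of Krt12 beside 35.7 of Krt15 and 8.51 of Krt4, while Efemp1ki/ki 17 months replicate 4 held 92.95 CPM of Krt12 beside 3.96 of Krt15 and 0.369 of Krt4. All 6 pairs within the 2 sets also passed in retinas, with r of 0.770 to 0.932. Krt5 with Krt19 passed in eyecups only (0.229 in retinas, permutation adjusted p = 0.163). Krt5 with Krt4 passed in retinas only (0.404, permutation adjusted p = 0.00994, beside 0.264 and 0.127 in eyecups). The differences between tissues were not tested. In retinas r was 0.861 for Krt12 with Aldh3a1 (rho 0.751, 0.811 without the 2 farthest), 0.932 for Aldh3a1 with Krt5 (rho 0.924, 0.914) and 0.898 for Krt15 with Krt4 (rho 0.900, 0.877), each with a permutation p of 1e-05 (adjusted over 21 pairs 1.91e-05). For Krt12 with Krt4 r was -0.105, rho -0.115 and the permutation p 0.487 (adjusted 0.491), and r was -0.252 without the 2 farthest. In all 15 of 21 pairs passed by permutation. The retina relations were added after seeing those of the eyecups.

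**Figure D4:**
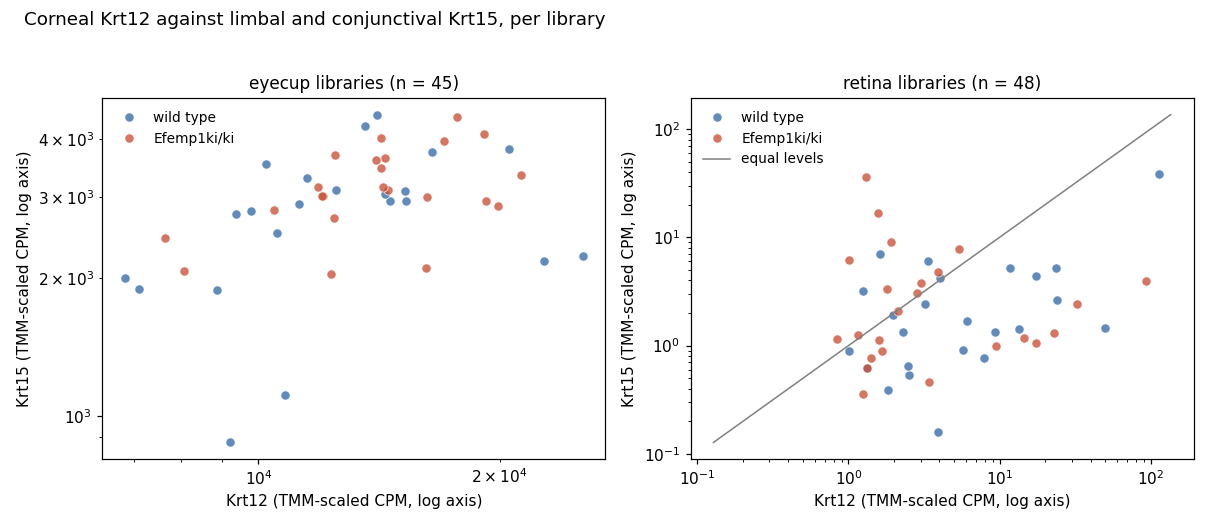
Krt15 (y axis) against Krt12 (x axis), both as TMM-scaled CPM on log axes, in 45 eyecups (left) and 48 retinas (right), wild type in blue and Efemp1ki/ki in red; the line in the retina panel marks equal levels. Krt12 exceeds Krt15 in every eyecup, while retinas fall on both sides of the line, 15 of 48 above it by count.

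In wild-type retinas 6 of 7 tested members were lower at 17 than at 3 months, where 7.92% of genes were called lower and 17.8% in either direction. Krt19 held 0.274 to 4.496 CPM (median 0.965) at 3 months and 0.0800 to 0.522 (median 0.175) at 17 months, and 6 of 8 older libraries lay below the lowest younger one. Krt4 ran from 0.221 to 8.17 CPM (median 1.23) at 3 months and from 0 in 2 libraries to 0.531 (median 0.152) at 17 months. Krt15 ran from 1.45 to 38.7 CPM (median 5.18) and from 0.160 to 4.36 (median 0.829). All of these groups overlapped.

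The log2 differences were -2.72 ± 0.63 for Krt19 (edgeR adjusted p = 0.00215), -3.66 ± 0.93 for Krt4 (0.00517), -1.997 ± 0.54 for Krt13 (0.00857), -2.73 ± 0.76 for Krt15 (0.0102), -2.06 ± 0.69 for Aldh3a1 (0.0325) and -2.42 ± 0.82 for Krt5 (0.0350), while Krt12 with -2.31 ± 0.90 did not pass (0.0673). The wild-type retinas at 3 months included replicate 7, which held 113 CPM of Krt12, 73.4 of Krt5 and 62.4 of Aldh3a1, the most of any retina, beside group medians of 8.91, 8.19 and 7.70. Without that library 2 of 7 members, Krt4 and Krt19, were called, as they were without the 2 retinas of the group highest in Krt12.

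In Efemp1ki/ki retinas 0 of 7 members were called between 3 and 17 months with edgeR (18.8% of genes called), and 0 had an unadjusted p under 0.05. Krt12 had a log2 difference of 1.39 ± 0.89 and Krt4 one of -0.96 ± 0.96. The interaction of genotype and age, added after seeing the data, called 0 of 7 members and 0% of genes with edgeR. An unadjusted p under 0.05 was seen for 6 of 7 members, from 0.00228 for Aldh3a1 to 0.0478 for Krt15, and each adjusted p was 0.9996. For Krt12 the interaction was 3.71, and 1.59 to 4.09 over 10 alternatives. Between genotypes 0 of 7 were called at 3 months (1.83% of genes), at 9 months (0%), at 17 months (0.406%) and as the mean of the ages (5.24%). At 3 months all 7 had an unadjusted p under 0.05, with log2 differences from -1.24 for Krt19 to -2.02 for Krt12 and adjusted p-values of 0.106 to 0.228. At 9 months Krt15, Krt19 and Krt4 did, with 2.30 ± 0.73, 1.41 ± 0.55 and 1.98 ± 0.79, adjusted p = 0.796 each. The wild-type side at 3 months includes replicate 7. Over 10 alternatives the 3-month difference ran from -2.17 to -0.334 for Krt12 and from -1.32 to -0.606 for Krt19. The biological coefficient of variation of the members was 0.707 to 1.17 in retinas and 0.235 to 0.433 in eyecups. The single common value that edgeR fitted was 0.0963 in retinas and 0.309 in eyecups, which is not that of a typical gene. From 99.6 to 99.9% of genes had a lower value than the members in retinas, and from 56.0% (Krt5) to 84.4% (Krt19) in eyecups.

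**Figure D5:**
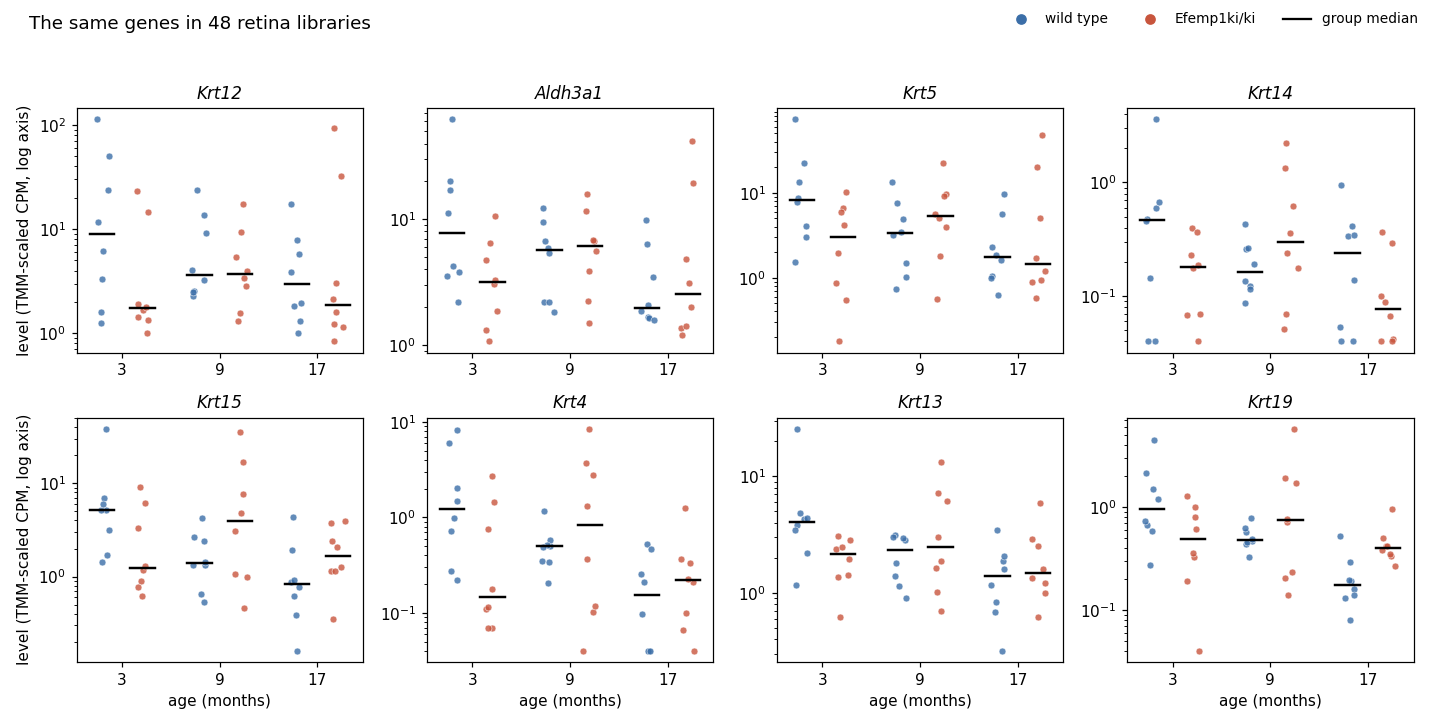
Level of each member in 48 retina libraries (y axis: TMM-scaled CPM, log axis) by age in months (x axis) for wild type (blue) and Efemp1ki/ki (red), with group medians as black bars; levels at or under 0.04 CPM are drawn at 0.04. Single retinas reach 113 CPM of Krt12 where the group median is 8.91, and groups overlap for every member.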

How the data were processed

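The authors deposited estimated counts per gene, rounded here to integers before testing, and a table named TPM, scaled over the protein-coding genes alone, so these deposited values are treated as a score. Per the labels' protocols, RNA came from RNeasy micro columns and libraries from the TruSeq Stranded mRNA kit. The submitters' processing notes name build GRCm38.p4, and for the aligner and counter, the sources used here give none. In each file 1 column matched no label and was not used.

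Genes were kept by filterByExpr (18003 in eyecup, 17240 in retina, 19210 jointly) and fitted with edgeR 4.0.16 in R 4.3.3 (TMM, robust quasi-likelihood F test, 1 fit per tissue over 6 groups). Calls used Benjamini-Hochberg adjusted p under 0.05 over all genes, and SE came from the F statistic. The test was also run on simulated counts with known changes, whose spread and library sizes came from the fit to the real eyecups. The rates of recovery are not given here. Correlations used log2 CPM (prior count 1) with 100000 2-sided permutations within groups. Named genes were all 8 members, the 3 genes nearest each member, the 5 other keratins highest in TPM and those called beside a member, and the 3 smallest p-values per list. In the mucin, lens and muscle lists, none was named, and 1 gene that the rule names is not reported here. Members and lists were chosen with earlier results of these data known. Alternatives used limma 3.58.1 (voom with quality weights, and log2(TPM + 1)), DESeq2 1.42.0, RLE size factors, no filter, only the groups compared, a replicate block, tissue covariates, a GC offset (99.8% of genes matched) and leaving out libraries. Depth set counting precision, and intervals and limits cover counting error only, since reads are not independent molecules.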

Additional observations from a re-analysis of the deposited data

Results flagged for a closer look

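In 90 groups of 6 to 8 libraries, 1 per gene and group, 25 had a highest or lowest library set apart from the rest by Dixon's test at 95%. Chance gives about 1 in 20 for normally distributed values, and the members of a library are not independent. The test was run on CPM and not on its log, and levels in many retina groups were skewed upward, so that rate need not hold there. No cause was tested.

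Of these, 6 were in eyecups. WT 17 months replicate 6 was the highest of its 8 libraries in Krt12 (13575 CPM, the next 10794) and in Aldh3a1 (9317, the next 7476). Efemp1ki/ki 17 months replicate 2 was the highest of 7 in Krt14 (868 CPM, the next 479) and Krt19 (654, the next 312), and Efemp1ki/ki 9 months replicate 7 was the highest of 8 in Krt14 (677, the next 411). WT 3 months replicate 3 was the lowest of 6 in Krt19, at 139 CPM with the next at 279.

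The other 19 were in retinas and all were high. WT 3 months replicate 7 exceeded its group in 6 members: Krt12 at 113 CPM (the next 50.2), Krt5 at 73.4 (22.5), Aldh3a1 at 62.4 (20.2), Krt15 at 38.7 (6.97), Krt13 at 25.6 (4.89) and Krt19 at 4.496 (2.14). Efemp1ki/ki 17 months replicate 4 did so in the corneal set and Krt13, with Krt12 at 92.95 CPM (32.5), Krt5 at 47.97 (20.03), Aldh3a1 at 41.9 (19.6) and Krt13 at 5.85 (2.89). Efemp1ki/ki 9 months replicate 2 did so in Krt15 at 35.7 CPM (16.8), Krt5 at 22.5 (9.60), Krt4 at 8.51 (3.70) and Krt19 at 5.83 (1.92), while its Krt12 was 1.30 CPM. WT 17 months replicate 2 was the highest in Krt12 at 17.3 CPM (7.84) and Krt15 at 4.36 (1.91). Efemp1ki/ki 17 months replicate 1 was the highest in Krt4 at 1.27 CPM (0.369) and Krt19 at 0.971 (0.507), and WT 9 months replicate 5 in Krt4 at 1.15 CPM (0.585).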

How the results depend on the processing

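For the 8 members in wild-type eyecups between 3 and 17 months, 2 calls became 4 with limma on log2(TPM + 1), 5 with voom and quality weights, 1 with no filter beyond 1 read, 1 with muscle and pigment epithelium covariates and 0 without the 6 libraries low in Krt4. Among all genes these settings called 1993, 2622, 788, 646 and 388 in that order, beside 1059 in the main fit. The genes tested numbered 18003, but 28375 with no filter and 17976 without the 6 libraries. The replicate block gave 0 calls of members (Krt12 adjusted p = 0.118, Krt13 0.0790), beside 398 of 18003 genes. What a shared replicate number stands for is not in the labels. Deviations of same-numbered libraries from different groups of a tissue correlated by -0.00123 on average in eyecups (-0.764 to 0.855) and 0.0067 in retinas. Eyecups were not set against retinas of the same number, so whether the number marks a pairing was not tested. Leaving out single libraries, in part chosen after seeing the data, gave 0 to 4 calls there, 0 to 1 for Efemp1ki/ki from 3 to 9 months and 2 to 7 for wild-type retinas between 3 and 17 months. The calls from 3 to 9 months in Efemp1ki/ki rose from 0 to 4 with voom and to 1 with only the groups compared and 1 without the libraries low in Krt4. These settings called 5894 of 18003, 2103 of 16820 and 3202 of 17976 genes, beside 2624 in the main fit. In wild type from 9 to 17 months voom called 1 member, beside 232 of 18003 genes. In wild-type retinas 6 calls became 3 with voom, 2 with only the groups compared and 2 without the pair of 3-month libraries highest in Krt12. There voom called 4721 of 17240 genes and the fit of only the groups compared 2257 of 16273, beside 3071 in the main fit. The cause was not tested. Over all genes, calls in the wild-type eyecup comparison numbered 1059, and 298 to 2622 over 25 alternatives. Of 1862 member values under alternatives, 0 reversed a call, 50 of 220 of called members lost it, and 21 of 1642 of uncalled ones gained it. A turn of sign without a call in either fit occurred in 92. At the median library of 16813461 counts in retina, members near 0 counts limit the precision of Krt4, Krt14 and Krt19.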
